A study of Mus musculus with 2 samples.

Results

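The unfolded protein response begins with sensors in the membrane of the endoplasmic reticulum (ER), the compartment in which secreted and membrane proteins are folded. IRE1α (Ern1) cuts a short piece from Xbp1 mRNA, PERK (Eif2ak3) is a kinase that slows translation, and ATF6 (Atf6) and its relative Atf6b move to the Golgi, where the site-1 protease (Mbtps1) and then the site-2 protease (Mbtps2) release their transcription factor part. Creb3, Creb3l1 and Creb3l2 encode membrane-bound factors that are released by the same proteases. The 10 genes described here are Xbp1 and these 9, chosen by name: every probe whose platform symbol, current or older, was one of them was taken. All 10 were found among the 16637 genes named on the array, with 12 probes: 3 for Mbtps2 and 1 for each of the others, Atf6b under its older symbol Crebl1.

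The samples were mouse embryonic fibroblasts labelled as Xbp1 knockout, taken on day 3 (1 sample) and on day 0 (1 sample) of drug-induced adipogenesis. Day 0 was the day the cells became confluent, and day 3 followed 72 h in insulin (10 µg/ml), the phosphodiesterase inhibitor IBMX (0.25 mM), DXM (5 µM) and the PPARγ agonist troglitazone (5 µM). Both samples are labelled as knockout, and fibroblasts with intact Xbp1 were not analysed here. The labels give neither the deleted part of Xbp1 nor whether the cells are 1 clone. Messenger RNA was measured with Cy5 on 1 single-colour array per day, so every day 3 to day 0 difference below has no replicate check, no test and no p-value, and a change in the cells cannot be told apart from variation between cultures or arrays. Nor can fewer cells of a type be told apart from less RNA per cell.

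Signals are intensities quantile normalized between the arrays, and differences are log2, day 3 minus day 0. The detection threshold was a signal of 122, which is the gene-probe median, and a gene above it on either day counts as detected (10656 genes). As scanned, the gene probes had a median intensity of 166 on day 3 and 78 on day 0. Of the 11 fibroblast markers examined, 11 were detected on both days, with a summed signal of 252298 on day 3 and 275788 on day 0, in which Dcn and Vim were saturated. Of these markers 2 were 2-fold higher (Fn1 4.16-fold and Lum 3.04-fold) and 2 were 2-fold lower (S100a4, -1.56, and Col1a1, -1.06). That is 18.2% in each direction, against 12.8% higher and 10.3% lower of all detected genes. Of 8 adipocyte markers 1 was detected, the lipase gene Lpl (59293 on day 3, where it was saturated and gives only a lower limit, and 8480 on day 0). Adipoq lay just under the threshold, with 120.5 on day 3 and 12 on day 0, and as scanned read 164 on day 3 and 7 on day 0. It counted as detected in 4 of the 12 settings described below. Among the dimmer markers Fabp4 read 59.5 on day 3 and 10.5 on day 0, and Cidec 52.5 on day 3 and 12 on day 0. Plin1 read 44 on day 3 and 21.5 on day 0, and Lep 15 on day 3 and 6 on day 0. Cd36 read 11.5 on day 3 and 10.5 on day 0. Only Cfd read lower on day 3, with 7.5 on day 3 and 15.5 on day 0. A marker under the threshold is thus not shown to be absent. Of 7 macrophage markers 3 were above the threshold on day 3 and 4 on day 0, with a summed signal of 43599.5 on day 3 and 17277.5 on day 0, mostly from Cd14, while the pan-leukocyte gene Ptprc read no more than 1.5 on either day. Such sums add probes whose levels cannot be compared. Itgam read 3556 on day 3 and 703.5 on day 0, and Csf1r the other way, 51.5 on day 3 and 269.5 on day 0. Endothelial (2 of 5 on the array), epithelial (2 of 6), muscle (2 of 6) and neural markers (4 of 6) were also detected in part. The part of other cell types in the results was not tested.

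Xbp1, the gene named in the genotype, encodes the transcription factor that IRE1α activates. Its probe (mMC022331) read 13561 on day 3 and 20936 on day 0, and as scanned 15493 on day 3 and 17889 on day 0. The probe was well above the threshold on both days and was not saturated. RNA matching it was thus measured in cells labelled as knockout. Neither the probe's position in the gene nor its sequence was analysed here, so the signal does not check the genotype and cannot tell the spliced from the unspliced transcript. Xbp1 lies at chr11:5520641-5525993 (GRCm38.p6).

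The day 3 signal of Xbp1 was 1.54-fold lower than the day 0 signal, a log2 difference of -0.63. Features printed as 6 spots on each array give a measure of technical scatter: across spots matched by position, a choice made after the members' values were seen, the pooled SD of the day 3 minus day 0 difference was 0.11 for log2 signals of 12 to 16. Without matching the spots by position it was 0.90, because spots of 1 feature differed from each other in the same way on both arrays. Either value leaves out variation between cultures and hybridizations. Of all detected genes, 19.6% had a lower difference than Xbp1. Its size depended on the scaling of the arrays. Left unnormalized it was -0.21, while all detected genes centred on 0.67, and -1.30 with both arrays scaled to 1 common median of the gene probes, where they centred on -0.49. Relative to those medians it was -0.88 and -0.81, and it lay below 0 in all 12 settings tried, the main one and 11 other ways to scale, filter or summarise the arrays.

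Among the 8 detected members, Mbtps2 was lower on day 3 by more than 5-fold and no other differed by as much as 2-fold. In all, 0 of 8 were at least 2-fold higher, against 12.8% of all detected genes, and 1 of 8 was at least 2-fold lower, against 10.3% of all detected genes. Of the 8, 4 read higher and 4 lower on day 3, and 5 differed by less than 1.5-fold (62.5%, against 54.9% of all detected genes). The members' median was -0.07, against 0.03 for all detected genes. The difference exceeded the pooled repeat-spot SD of its signal range in 5 of 8 members, against 76.0% of all detected genes, so passing that SD does not set a gene apart on these arrays. Without matching the spots by position 1 of 8 members, Mbtps2, exceeded it, against 36.5% of all detected genes. The repeat-spot SDs given below for single members are those with matched spots. Unmatched, the pooled SD was larger in every signal range, from 0.51 to 0.99.

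**Figure D1:**
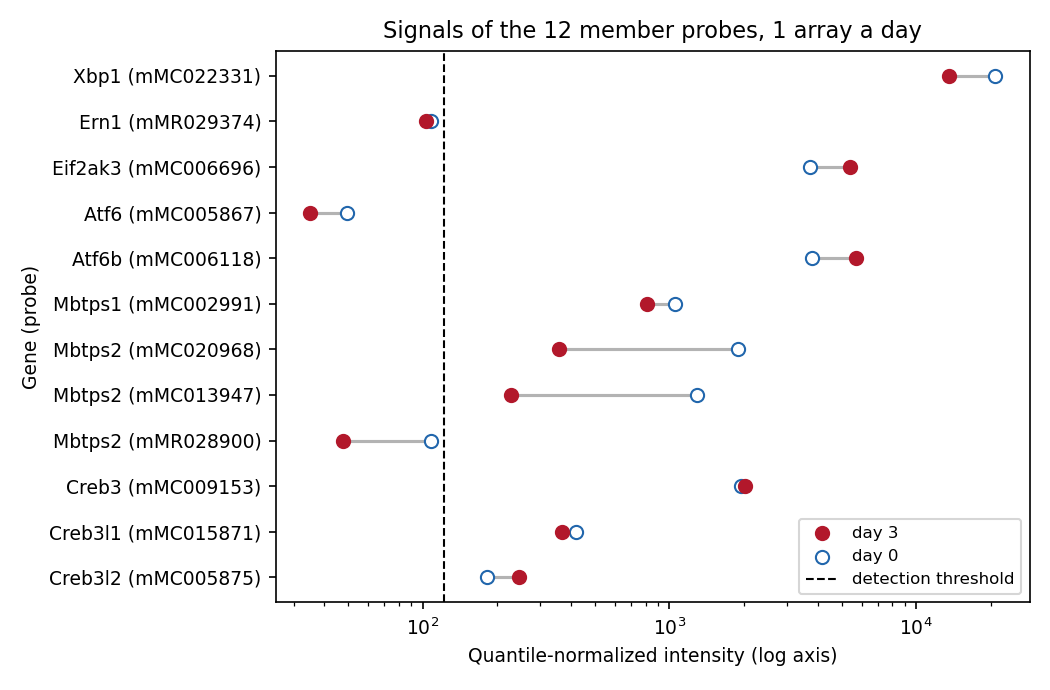
Quantile-normalized intensity (log axis) of each of the 12 probes of the 10 genes on day 3 (filled red) and day 0 (open blue), 1 array per day, with the detection threshold of 122 as a dashed line. The first 2 Mbtps2 probes stand far left on day 3 of their day 0 points, Xbp1 stands left by less, Eif2ak3 and Atf6b stand right, and Ern1, Atf6 and the third Mbtps2 probe lie below the threshold on both days. Positions of different probes cannot be compared as levels.

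Among the sensors, PERK mRNA read higher on day 3, and the mRNAs of IRE1α and ATF6 lay under the threshold. Eif2ak3 (chr6:70844484-70905241) read 5401 on day 3 and 3695.5 on day 0, which is 1.46-fold higher, a difference of 0.55 with a repeat-spot SD of 0.11. Ern1 (chr11:106397620-106487796) read 103 on day 3 and 108 on day 0. Both signals lie just under the threshold, so no fold is given. As scanned, Ern1 read 140 on day 3 and 69 on day 0, far above the 95th percentile of empty spots, 9 on day 3 and 7 on day 0. It exceeded the threshold on day 3 with no normalization (140, threshold 118) and with the arrays scaled on the probes that passed on both days (118, threshold 117). Atf6 (chr1:170704457-170868585) read 35 on day 3 and 49.5 on day 0, and as scanned 54 on day 3 and 22 on day 0. With these readings the direction of Ern1 and of Atf6 turns with the scaling, and neither has a settled direction here.

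Atf6b (chr17:34647146-34655074), a membrane-bound relative of ATF6, was measured clearly on both days. It read 5690.5 on day 3 and 3762.5 on day 0, 1.51-fold higher, a difference of 0.60 with a repeat-spot SD of 0.11. As scanned, Atf6b read 6543 on day 3 and 3227 on day 0. Less the median of all detected genes, Atf6b was above 0 in all 12 settings (0.35 to 0.62), as was Eif2ak3 (0.30 to 0.57). As read, both fell below 0 with median scaling over all gene probes (Atf6b -0.07 and Eif2ak3 -0.12), where all detected genes centred on -0.49. Subtracting the difference of Xbp1 from that of Atf6b gave 1.22, between 1.13 and 1.23 over the 12 settings, and for Eif2ak3 less Xbp1 it gave 1.17, between 1.08 and 1.18. On these 2 arrays the 3 probes therefore did not move together. Such a contrast changes little with the scaling, since a constant factor per array cancels in it.

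The proteases that release ATF6 differed from each other. Mbtps2 (chrX:157547822-157598715), the metalloprotease that makes the second cut, read 355.5 on day 3 and 1900.5 on day 0 by its brightest probe (mMC020968), 5.35-fold lower. The second probe (mMC013947) read 227 on day 3 and 1294.5 on day 0, 5.70-fold lower. These probes passed the threshold on either day, and as scanned both also read lower on day 3, with 448 on day 3 and 1580 on day 0 for the first and 296 on day 3 and 1060 on day 0 for the second. Their log2 differences were -2.42 and -2.51, with a repeat-spot SD of 0.22. The third probe (mMR028900) was under the threshold on both days, with 47.5 on day 3 and 108 on day 0, and as scanned with 74 on day 3 and 69 on day 0, so it gives no fold and does not bear on the direction.

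The pair of readable Mbtps2 probes lay 0.09 apart. Among 1603 genes with at least 2 probes detected on both days, the median gap between the brightest probes was 0.50, and 26.3% had a gap under 0.2. Where the brightest probe was at least 2-fold lower on day 3 (167 genes), the second was also at least 2-fold lower in 96. By its brightest probe, Mbtps2 had the 86th lowest difference of 10656 detected genes. In its signal range, log2 8 to 10, 11.2% of detected genes were at least 2-fold lower. Mbtps2 was at least 2-fold lower in every one of the 12 settings, between -2.49 and -2.02 less the median of all detected genes, and the value nearest 0 came from the mean that includes the third, undetected probe.

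Mbtps1 (chr8:119508151-119558864), the serine protease that makes the first cut, read 812.5 on day 3 and 1053 on day 0, 1.30-fold lower, a difference of -0.37 with a repeat-spot SD of 0.22. As scanned, Mbtps1 read 977 on day 3 and 854 on day 0, so its sign turns where no normalization is applied (0.19). Less the median of all detected genes it was below 0 in all 12 settings, from -0.48 to -0.35. The difference of Mbtps2 less that of Mbtps1 was -2.04, and it stayed between -2.04 and -1.66 over the 12 settings.

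**Figure D2:**
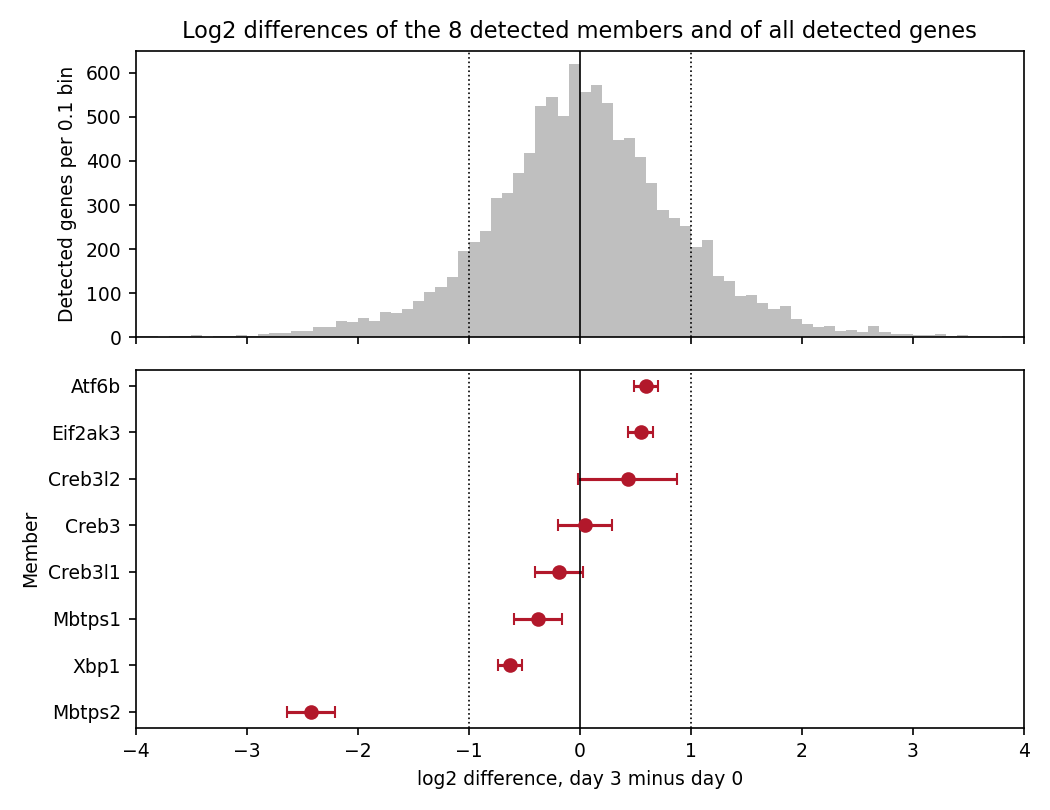
The lower panel gives the log2 difference, day 3 minus day 0, of the 8 detected members, with bars of ± 1 pooled repeat-spot SD of their signal range. The bars are from spots matched by position and cover scatter between spots only. The upper panel counts all 10656 detected genes per 0.1 of the same difference, cut at -4 and 4. Dotted lines mark 2-fold. Mbtps2 at -2.42 is the 1 member outside them, and the other 7 lie between -0.63 and 0.60.

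The CREB3-type factors showed smaller differences. Creb3 (chr4:43562658-43567061), also known as Luman, read 2017.5 on day 3 and 1948.5 on day 0, a difference of 0.05 that is smaller than its repeat-spot SD of 0.24. Creb3l1 (chr2:91982328-92024170), also known as Oasis and known for its part in collagen production in bone, read 366 on day 3 and 417 on day 0, a difference of -0.19 with a repeat-spot SD of 0.22. Creb3l2 (chr6:37327255-37442276), a regulator of ER to Golgi transport in cartilage, read 246 on day 3 and 182.5 on day 0, a difference of 0.43 with a repeat-spot SD of 0.45. In the main setting all 3 differences lie within the pooled repeat-spot SD of their signal range. The difference of Creb3l2 exceeds the median repeat-spot SD of its range, 0.34. Less the median of all detected genes, Creb3l2 was above 0 in all 12 settings (0.32 to 0.76) and Creb3l1 below 0 in all 12 (-0.22 to -0.04), whereas Creb3 (-0.13 to 0.07) changed sign between settings. As read, Creb3l1 was above 0 in 2 of the 12.

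**Figure D3:**
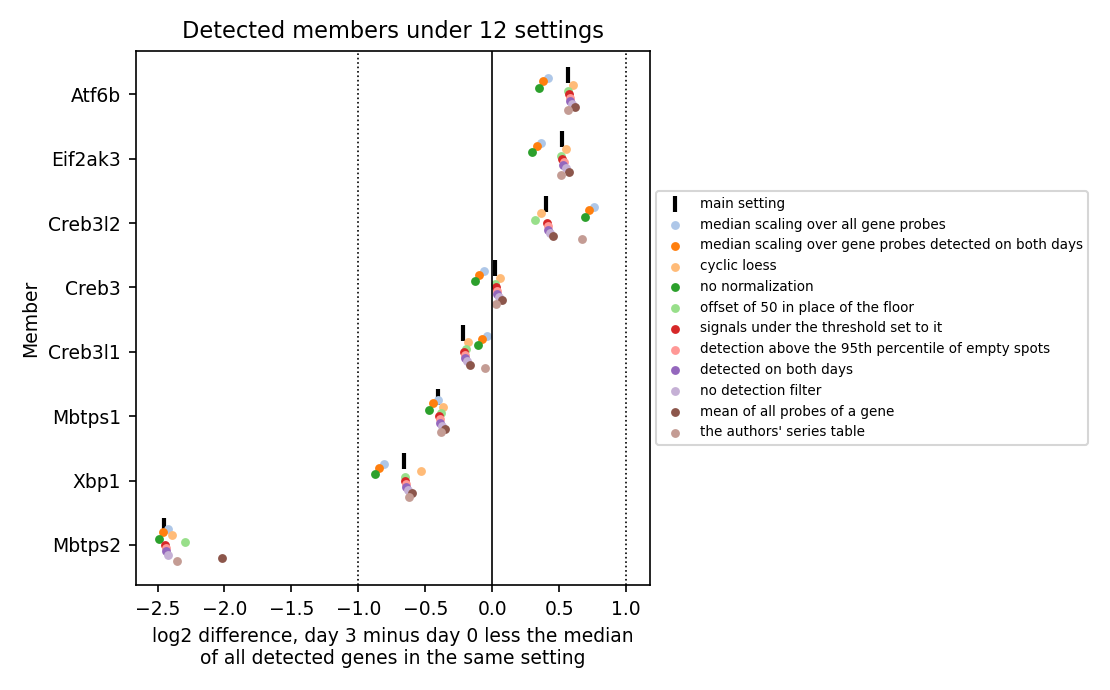
Log2 difference, day 3 minus day 0, of the 8 detected members in the main setting (black bar) and 11 alternatives (dots), less the median of all detected genes in the same setting. Mbtps2 stays below -2, Xbp1, Mbtps1 and Creb3l1 stay below 0, Atf6b, Eif2ak3 and Creb3l2 stay above 0, and Creb3 straddles 0.

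The series table that the authors deposited, with their own normalization, held values for 9 of the 12 member probes and for none of Ern1, Atf6 and the third Mbtps2 probe. In it Mbtps2 read 360 on day 3 and 1809 on day 0 by its brightest probe, and 250 on day 3 and 1228 on day 0 by the second. Xbp1 read 13047 on day 3 and 19761 on day 0, Eif2ak3 5120 on day 3 and 3523 on day 0, and Atf6b 5416 on day 3 and 3590 on day 0. The log2 differences of these 3 genes in that table were -0.60, 0.54 and 0.59, close to those above. Those of Creb3l2 (0.69, against 0.43 in the main setting) and Creb3l1 (-0.03, against -0.19) lay further off.

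The relatives of the sensors outside the member list stayed under 2-fold. Of 6 genes, 4 were detected and 0 were 2-fold higher or lower, with a median of -0.34. Of all detected genes 12.8% were 2-fold higher and 10.3% 2-fold lower, so a count of 0 among 4 genes does not set them apart. The eIF2α kinase genes Eif2ak1 (0.27), Eif2ak4 (-0.18) and Eif2ak2 (-0.51) and the CREB3-type gene Creb3l3 (-0.69) kept these directions, less the median of all detected genes, in every setting that detected them. As read they turned: Eif2ak1 with median scaling over all gene probes (-0.34), and Eif2ak4 (0.32), Eif2ak2 (0.09) and Creb3l3 (0.21) with no normalization. The IRE1 paralog gene Ern2 and Creb3l4 were below the threshold on both days. Eif2ak3, with 0.55, had the highest difference of the eIF2α kinase genes on the array.

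By their brightest probes, genes that act with IRE1 and XBP1 also stayed under 2-fold. Of 17 genes 16 were on the array and detected, and their median was -0.03. Of the 16, 0 were 2-fold higher, against 12.8% of all detected genes, and 0 were 2-fold lower, against 10.3%. Rtcb, the ligase that joins Xbp1 mRNA after IRE1α has cut it, read 8591.5 on day 3 and 8999 on day 0 (-0.07). The largest differences were those of the ER disulfide isomerase gene Pdia6 (-0.69), the stress kinase gene Map3k5 (0.67, and -0.17 by its other detected probe), and Sel1l (0.66) and Syvn1 (0.61), which encode partners in an ER ubiquitin ligase. Each of these 4 kept its sign in every setting less the median of all detected genes, while as read Syvn1 gave -0.04 with median scaling over all gene probes. The translocon gene Sec63, named after its values were seen, had a brightest probe at -0.09 and further detected probes at 0.34, -0.02 and -4.46, and was 2-fold lower (-1.04) with the mean of all probes.

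The list of PERK and ATF4 targets held more genes past 2-fold than the list of XBP1 and ATF6 targets. This difference between lists was not tested and rests on 1 array a day. Of 24 detected XBP1 and ATF6 targets on a list of 27, 2 were 2-fold lower on day 3 and 0 were 2-fold higher (median -0.15). That is 8.33% lower and 0% higher, against 10.3% lower and 12.8% higher of all detected genes. Those 2 were Herpud1 (-1.16), an ER-associated degradation gene, and Sdf2l1 (-1.08), which encodes an ER chaperone partner. Less the median of all detected genes, the median of this list lay between -0.23 and 0.03 over the 12 settings. The list then held 0 to 1 genes at least 2-fold higher and 2 lower. Edem1, named after its values were seen, lay just under the threshold, with 120.5 on day 3 and 43.5 on day 0. It counted as detected in 4 of the 12 settings (1.45 to 2.47). The ER chaperone gene Hspa5, whose product BiP binds the sensors, read 11804.5 on day 3 and 14018 on day 0 (-0.25). Of 18 detected PERK and ATF4 targets on a list of 22, 8 were 2-fold lower and 0 were 2-fold higher (median -0.76). That is 44.4% lower, against the same 10.3%. Whether PERK or another eIF2α kinase acts on these genes here was not tested. The ER oxidase gene Ero1a gave -2.17, and -0.29 by its other detected probe. The pseudokinase gene Trib3 (-1.84), the CHOP gene Ddit3 (-1.41) and the amino acid transporter gene Slc7a5 (-1.32) followed. The rest of the 8 were the tRNA synthetase gene Wars (-1.27), Herpud1 (-1.16), which both lists hold, the glutathione-degrading enzyme gene Chac1 (-1.12) and the cystine transporter gene Slc7a11 (-1.11, and -2.09 and -1.95 by its other detected probes). Wars, Chac1 and Slc7a11 were named to complete the count, after their values were seen. Of the 18 genes 14 read lower and 4 higher on day 3. The higher ones included Nupr1 (0.86), Ppp1r15b (0.79, and -0.01 by its other detected probe) and Cebpb (0.69), also named after their values were seen. The PERK and ATF4 list held 7 to 9 genes at least 2-fold lower in each of the 12 settings. Its median, less that of all detected genes, stayed between -1.02 and -0.73. Atf4, which encodes the factor that PERK induces by translation, read 49238.5 on day 3 and 40450 on day 0 (0.28).

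Transcripts that IRE1α is known to cut, and substrates of the proteases, were few on the array. Of 5 IRE1 decay substrates detected from a list of 7, 1 was 2-fold higher (20%, against 12.8% of all detected genes). None was 2-fold lower, against 10.3%. The higher one was Scara3, a scavenger receptor family gene, 4.17-fold higher on day 3 (9423 on day 3 and 2258 on day 0). Pmp22, a myelin protein gene, gave 0.79, and Sparc (0.10) and Pdgfrb (0.07) changed sign between settings. Hgsnat, named to complete the list, gave -0.04. Less the median of all detected genes, Hgsnat was below 0 in all 12 settings. Of 8 detected genes of the protease and SREBP list, 2 were 2-fold higher (25%, against 12.8% of all detected genes) and 1 was 2-fold lower (12.5%, against 10.3%), with a median of 0.17. Less the median of all detected genes, the count of 2-fold higher genes was 1 in the main setting and 1 to 2 over the 12 settings. The probes of Insig1, which holds SREBP in the ER, disagreed in sign (1.97 for the brightest, -1.01 and -1.31 for the rest), so its direction is not settled. Insig2 was 2.03-fold higher as read, just past the threshold. Less the median of all detected genes it was under 2-fold in the main setting (0.99), and 0.78 at the lowest. The sterol enzyme gene Idi1 gave 0.82, and Bdnf, whose precursor the site-1 protease can cut, gave -1.12.

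**Figure D4:**
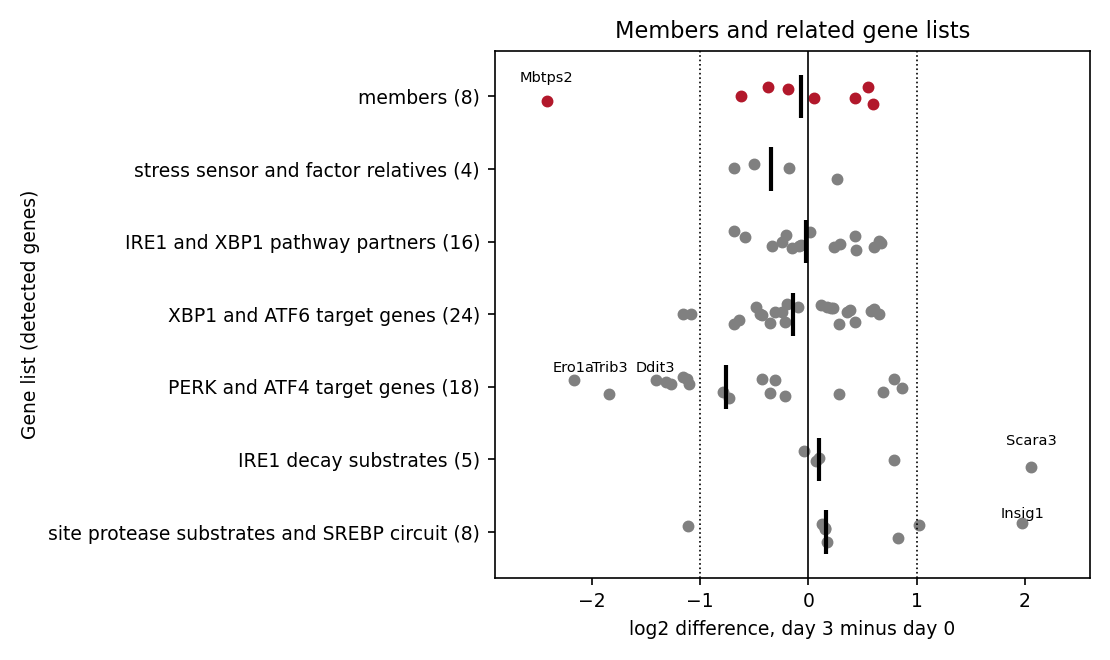
Log2 difference, day 3 minus day 0, of each detected gene (dot) in the member list (red) and 6 related lists (grey), with list medians as black bars and 2-fold as dotted lines. Gene names mark differences beyond 1.4. The PERK and ATF4 targets have the lowest median, -0.76, and Mbtps2 is the lowest dot of all lists.

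With 2 arrays, likeness in pattern comes down to the gap between single differences. Among 70 detected genes of the related lists, those nearest to Xbp1 were the ER degradation gene Derl1 (-0.64), the ER membrane protein gene Wfs1 (-0.58) and Creb3l3 (-0.69), but 677 other detected genes lay within 0.1 of Xbp1. Nearest to Mbtps2 were Ero1a (-2.17), Trib3 (-1.84) and Ddit3 (-1.41), with gaps of 0.25, 0.58 and 1.01, and 38 other detected genes lay within 0.1 of Mbtps2.

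The sequences upstream of the members were compared because XBP1 and ATF6 bind known elements in promoters. RefSeq promoter sequence (GRCm38.p6) was found for 8 of the 10 genes, all but Atf6 and Creb3l1, and the 250 bases before the start that the promoter table uses were searched on both strands. For 3 genes that start lies inside the gene coordinates given here, and the window runs into the gene by 128 bases in Creb3l2, 103 in Mbtps1 and 31 in Eif2ak3. The ER stress element, CCAAT and CCACG spaced by 9 bases, was in 0 of 8 members and in 0.113% of 32851 promoters of that length. The related element ERSE-II (ATTGG, any base, CCACG) was in 0 of 8 and 0.0304%, the XBP1-binding core TGACGTGG in 0 of 8 and 0.563%, the cAMP element TGACGTCA in 0 of 8 and 1.55%, and the C/EBP-ATF composite TGATGNAAT in 0 of 8 and 0.816%. These counts say only that those letters are not in these windows.

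The CCAAT box, bound by the factor NF-Y, is part of the first element and overlaps the second as its reverse complement ATTGG. It was in 3 of 8 member windows, against 33.8% of all promoters: those of Eif2ak3 (6 boxes), Creb3l2 (2) and Atf6b (1). The last box of Eif2ak3 and the proximal box of Creb3l2 lie inside the gene coordinates. At least 6 boxes were found in 19 of all 32851 promoters. The window of Eif2ak3 is shown for its number of boxes, and those of Xbp1 and Mbtps2, which had 0, because the results turn on these genes. They read 5′ to 3′ on the gene's strand, with each box (CCAAT or ATTGG) in capitals. They lie at chr6:70844265-70844514 (+), chr11:5520391-5520640 (+) and chrX:157598716-157598965 (-).
Eif2ak3: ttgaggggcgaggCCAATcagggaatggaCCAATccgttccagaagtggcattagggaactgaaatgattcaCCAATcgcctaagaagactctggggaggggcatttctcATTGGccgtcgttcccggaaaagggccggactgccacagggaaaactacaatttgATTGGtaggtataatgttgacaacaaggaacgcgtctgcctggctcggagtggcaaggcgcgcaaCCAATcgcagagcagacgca
Xbp1: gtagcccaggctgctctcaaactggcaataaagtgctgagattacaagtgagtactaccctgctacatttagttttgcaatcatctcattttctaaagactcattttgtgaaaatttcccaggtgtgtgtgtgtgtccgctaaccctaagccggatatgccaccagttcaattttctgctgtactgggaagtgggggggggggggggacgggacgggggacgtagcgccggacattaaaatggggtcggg
Mbtps2: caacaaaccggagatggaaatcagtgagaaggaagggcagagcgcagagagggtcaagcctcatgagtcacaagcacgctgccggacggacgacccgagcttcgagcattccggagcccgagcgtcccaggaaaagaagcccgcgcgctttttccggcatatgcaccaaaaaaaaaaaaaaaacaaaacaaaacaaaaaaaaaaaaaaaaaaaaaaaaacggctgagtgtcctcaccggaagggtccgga

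The boxes of Creb3l2, at chr6:37442368-37442396 and chr6:37442198-37442226 (-), and of Atf6b, at chr17:34647050-34647078 (+), are shown with 12 bases on each side, the box again in capitals.
Creb3l2, distal: ccctagcaccctATTGGtccattgcgacg
Creb3l2, proximal: gacgggcgttcgATTGGtcactggcctgg
Atf6b: ctgacccgtgccATTGGcccggcatgcac

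The 3 members with a CCAAT box were the 3 detected members with the highest differences (Atf6b 0.60, Eif2ak3 0.55 and Creb3l2 0.43). The match was seen after the values were known, in a window that was also chosen after they were seen. Creb3l1, a detected member, had no promoter sequence to search. In the main setting the difference of Creb3l2 lies within its pooled repeat-spot SD of 0.45. The match therefore does not link the box to the differences. Over the 3497 detected genes with a box in that window the median difference was 0.05, against 0.02 over the 5151 detected genes without one, and over the 432 with 3 or more boxes it was 0.00459.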

How the data were processed

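Total RNA was amplified and labelled with Cy5 by the array company, per the labels' protocols. The deposited tables give 1 linear intensity for each of 39200 spots per array, whose 7402 empty spots had a median of 0 on both days. For the scanner, image software and background method, the sources used here give nothing. The authors' deposited series table holds intensity values for 11482 of 29922 gene probes, made by a rule not given.

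Quantile normalization of the gene probes between arrays used limma 3.58.1 (R 4.3.3). A floor of 10 was then applied before log2. Probe symbols from the platform annotation were updated through a GRCm38.p6 gene table: 17558 held as they stood, 3410 were older synonyms and 52 had no match and stayed as given. Each gene took its brightest probe by mean log2 signal. Repeat-spot SDs came from control features of 6 spots that were unsaturated (below 65000), namely 38 with mean log2 signals of 6 to 8, 7 in the range 8 to 10, 22 in the range 10 to 12 and 65 in the range 12 to 16, with spots matched by their row in both tables. The matching, the omission of saturated features and the 250-base promoter window (first 300 bases, which included transcribed sequence) were chosen after the members' values were seen. The code was checked on simulated data. The number of arrays, 1 a day, limits the precision.

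The members and the gene lists were chosen with earlier results of these data known. Named were all members, up to 4 detected genes of each related list with the largest differences, and the nearest genes in difference. The alternatives are named in the closing section. Probe sequences were not analysed here.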

Additional observations from a re-analysis of the deposited data

How the results depend on the processing

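The members' differences and counts, the related lists' counts and medians and the differences of the list genes were recomputed under 11 other ways to scale, filter or summarise the arrays and with a threshold of 1.5-fold in place of 2-fold. The summed marker signals, the gaps between probes, the nearest genes and the CCAAT medians were computed in the main setting only. The 11 were median scaling over all gene probes, median scaling over gene probes detected on both days, cyclic loess with 3 iterations, no normalization, an offset of 50 in place of the floor, signals under the threshold set to it, detection above the 95th percentile of empty spots, detection on both days, no detection filter, the mean of all probes of a gene, and the authors' series table. Under all 11, less the median of all detected genes, 0 members were 2-fold higher and 1, Mbtps2, was 2-fold lower, and the members' median stayed between -0.14 and -0.02. As read, without removing the shift of all genes, 3 members were 2-fold higher with no normalization and 2 were 2-fold lower with median scaling on all gene probes. With the threshold of 1.5-fold, as read in the main normalization, 1 member was higher (Atf6b, against 24.1% of all detected genes) and 2 were lower (Mbtps2 and Xbp1, against 21.0%). Less the median of all detected genes, 0 were higher, with Atf6b at 0.57, and the same 2 were lower. Among all detected genes the count of 2-fold higher ones ranged from 814 of 8211 in the authors' series table to 2238 of 16637 with no detection filter, against 1361 in the main setting. The count of lower ones ranged from 695 to 1797 in the same 2 settings, against 1093. As a share, higher ones ranged from 9.7% with the offset of 50 to 17.5% with median scaling over gene probes detected on both days. Lower ones ranged from 8.3% with the offset of 50 to 11.9% with cyclic loess. Repeat spots not matched by position, an alternative added after the data were seen, left 1 member beyond the pooled SD in place of 5, with saturated features left out or kept. No paired analysis was possible because each day was 1 array, and no replicate could be left out. A dim probe limits what can be read for Ern1, Atf6 and the third Mbtps2 probe.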
